A study of Mus musculus with 14 samples.

Results

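Skeletal muscle of calorie-restricted (CR) mice was compared with muscle of control mice on expression arrays, 3 CR arrays against 2 control arrays. The male C57BL/6 mice were 13 months old when the diets began. CR mice received 70% of the normal diet, and control mice ate the same chow ad libitum. A further 3 muscle arrays, from mice given the chow with 0.066% β-lapachone (βL), entered the statistical model only, where they contributed to the estimate of spread. A probe was taken into the comparison when its detection p-value was under 0.05, that is, when its signal stood above the negative-control beads, on 2 or more of the 8 muscle arrays. This kept 12584 of 25697 probes (49%), which named 8898 genes. The muscle that was sampled, the hour of collection, the time on the diet and the chip that carried each array are not given in the sources used here, and nothing states that the arrays of a diet came from separate mice. All p-values therefore measure only the spread between these arrays, which may be technical. In whole muscle, fewer cells of a type and less RNA per cell cannot be told apart.

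Skeletal muscle burns glucose and fatty acids, stores glycogen, and lowers its glucose use in favour of lipid when food is scarce. Its fibres are slow-twitch, rich in mitochondria and built with one set of myosin and troponin isoforms, or fast-twitch, built with another. The tissue also runs a circadian clock, in which BMAL1 (encoded by Arntl) and CLOCK switch on the Per and Cry genes, whose proteins then repress BMAL1 and CLOCK, while REV-ERB and ROR proteins act on Arntl. Meal timing is a known cue for the clocks of peripheral tissues.

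All 11 measured muscle-defining genes, among them those for skeletal actin and muscle creatine kinase, were above background on each of the 5 arrays. The arrays were alike in brightness, with median intensities of 149.8 to 164.6 over the 8 muscle arrays and 11123 to 11786 probes above background (43.3 to 45.9%). Control replicate 1 stood apart from the others. Its mean correlation with the other 7 arrays was 0.970, against 0.976 to 0.983 for those arrays, and the differences between the control arrays had an SD of 0.50 log2 units across probes, against 0.37 to 0.39 between CR arrays. Of 19 liver genes with a probe, 1, 3 and 2 were above background on the CR arrays, against 14 on control replicate 1 and 1 on control replicate 2. Alb, which encodes albumin, was not above background on any of the 5, and Mup2, a major urinary protein gene of the liver, gave 4.63, 4.86 and 4.95 log2 units on the CR arrays, against 10.99 on control replicate 1 and 4.74 on control replicate 2. The summed intensity of the 19 was 626 to 870 on the CR arrays, against 8102 on control replicate 1 and 642 on control replicate 2. The summed intensity of 14 slow-twitch fibre genes was 163580, 46083 and 40542 on CR replicates 1 to 3, against 3065 on control replicate 1 and 165460 on control replicate 2. For these reasons the medians of gene groups are given against both control arrays and against each alone, and the genes the results turn on are given array by array.

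**Figure D1:**
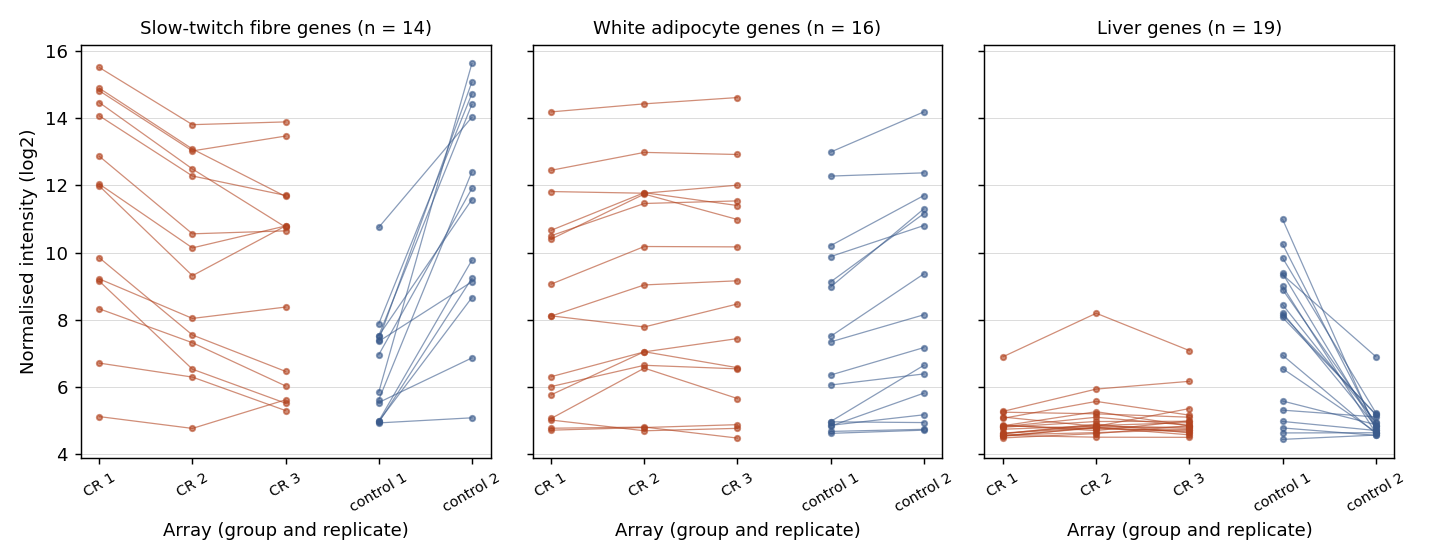
Normalised log2 intensity of slow-twitch fibre, white adipocyte and liver genes on each array, with 1 line per gene joining its values within a group (red-brown, CR; blue, control). Slow-twitch genes were high on CR replicate 1 and control replicate 2 and low on control replicate 1, the only array with 14 of the 19 liver genes above background.

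No probe was called between CR and control by limma at an adjusted p under 0.05 (0 of 12584, or 0%), and the smallest adjusted p was 0.612. At an unadjusted p under 0.05 limma gave 641 probes (5.09%), 323 higher in CR and 318 lower, and the methods' t-test gave 562 with no call after Benjamini-Hochberg adjustment. No single difference described here passed the limma test, so "higher" and "lower" refer to measured values. Of the genes given with values, Vti1a had the smallest adjusted p, and all other probes were at 0.950 or above. The mean difference was 1.5-fold or more for 272 probes higher in CR (2.16%) and 192 lower (1.53%), so that 58.6% of them were higher. That share was 75.9% without background correction (82 higher and 26 lower) and 34.8% when arrays were scaled by their medians, which moved the median of all probes to -0.11. Against control replicate 1 alone 790 probes were past 1.5-fold higher (6.28%) and 708 lower (5.63%), and against control replicate 2 alone 289 were higher (2.3%) and 343 lower (2.73%).

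All 3 CR arrays lay above both control arrays for 1202 probes (9.55%) and below both for 1220 (9.69%). Counted once per gene by the brightest probe, this held for 823 of 8898 genes higher (9.25%) and 870 lower (9.78%). These shares are the background against which the gene groups below are counted. The groups were chosen with earlier results of these data known, so a share above the background is a description and not a test. The nearest arrays of the groups were themselves 1.5-fold or more apart for 24 probes higher in CR and 6 lower. The median difference over all genes was 0.00 log2 units, with 49.5% of genes above 0. Of the 12584 probes, 9854 were above background on all 5 arrays and 161 on none of them.

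**Figure D2:**
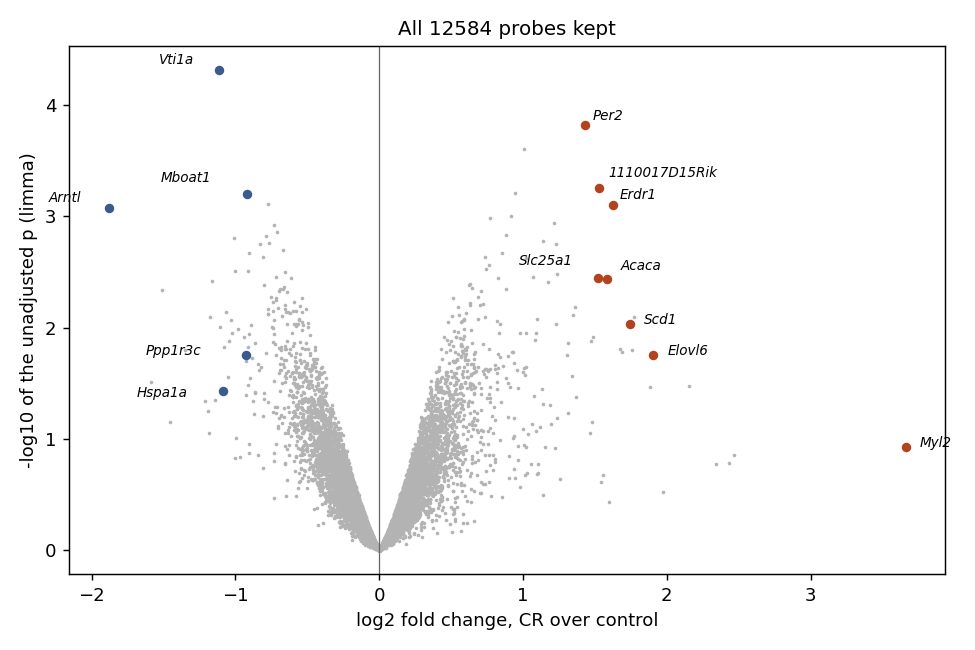
Each point is 1 of the 12584 probes kept, with the log2 fold change of CR over control on the x axis and the -log10 of the unadjusted limma p on the y axis. Labelled genes are coloured (red-brown, higher in CR; blue, lower), and Vti1a and Per2 lie highest, with no probe past the adjusted threshold.

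Both probes of Per2 followed Vti1a in the order of p, and the probe of Arntl was among the next 6. Per1, Per2 and Per3, which encode the repressors of the loop, were higher on all CR arrays than on either control array, and Arntl was lower. Of 11 core clock genes measured, 3 were higher without overlap and 2 lower, beside 9.25% and 9.78% of all genes. The median over the list was 0.00, -0.10 against control replicate 1 alone and 0.03 against control replicate 2 alone. The promoters of 4 of the clock genes are shown because they hold the sites through which the loop is known to act. RefSeq promoters (GRCm38.p6, 300 bases across the start of the gene) were found for 10 of 11 clock genes looked up, all but Per2. The 4 printed run 5′ to 3′ on the strand of the gene. Capitals mark the E-box CACGTG, bound by BMAL1 and CLOCK, in Per1 and Ciart, the D-box TTATGTAA, bound by DBP and NFIL3, in Per3, and the ROR element TAGGTCA in Arntl.
Per1, chr11:69098699-69098998, plus strand: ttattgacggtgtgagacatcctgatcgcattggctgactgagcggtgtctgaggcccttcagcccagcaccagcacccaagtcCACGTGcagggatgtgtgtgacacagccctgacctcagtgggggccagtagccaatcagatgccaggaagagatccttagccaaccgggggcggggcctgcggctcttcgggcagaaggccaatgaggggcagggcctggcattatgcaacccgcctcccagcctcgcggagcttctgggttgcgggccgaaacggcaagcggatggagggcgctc
Ciart, chr3:95882179-95882478, minus strand: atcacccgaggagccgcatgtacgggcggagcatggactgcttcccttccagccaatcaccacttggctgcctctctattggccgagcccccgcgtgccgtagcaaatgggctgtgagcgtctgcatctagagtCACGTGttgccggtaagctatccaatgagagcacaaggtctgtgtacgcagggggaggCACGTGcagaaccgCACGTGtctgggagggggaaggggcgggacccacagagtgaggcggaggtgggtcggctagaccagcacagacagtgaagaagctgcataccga
Per3, chr4:151044616-151044915, minus strand: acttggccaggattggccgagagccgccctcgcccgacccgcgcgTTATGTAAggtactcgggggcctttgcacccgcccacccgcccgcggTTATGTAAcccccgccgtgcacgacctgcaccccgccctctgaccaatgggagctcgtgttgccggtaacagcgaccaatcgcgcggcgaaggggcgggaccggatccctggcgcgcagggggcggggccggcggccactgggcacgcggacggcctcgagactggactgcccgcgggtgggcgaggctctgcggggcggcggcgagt
Arntl, chr7:113207261-113207560, plus strand: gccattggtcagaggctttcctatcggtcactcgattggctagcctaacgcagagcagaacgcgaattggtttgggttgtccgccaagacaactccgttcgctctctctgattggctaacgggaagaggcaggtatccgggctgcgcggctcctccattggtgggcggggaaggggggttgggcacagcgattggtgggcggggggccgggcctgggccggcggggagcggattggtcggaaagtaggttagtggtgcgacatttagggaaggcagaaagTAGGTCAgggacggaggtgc
Searched on both strands, the E-box stood in 7.15% of all 32851 promoters of this length, the D-box (TTATGTAA or TTACGTAA) in 1.06%, and the ROR element in 2.61%. Ciart held 3 E-boxes, the Per1 and Arntl promoters shown held 1 match each, and Per3 held 2 D-boxes. Per1 and Arntl each have another promoter in the table, at chr11:69099902-69100201 and chr7:113207215-113207514, and neither held a match. Nfil3 held 1 ROR element, and both promoters of Tef held 1 E-box. The promoters of Dbp, Usp2, Nr1d1 and Nr1d2 held no match to any of these letters. A match describes the letters alone.

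Per2 gave 10.13, 10.29 and 10.60 log2 units on CR replicates 1 to 3, against 8.61 and 9.21 on control replicates 1 and 2. The lowest CR array lay 0.92 above the higher control array. The log2 fold change was 1.43 ± 0.23 (SE), or 2.7-fold (limma, adjusted p = 0.950), with differences of 1.73 from control replicate 1 and 1.13 from control replicate 2. A further Per2 probe separated the groups in the same way, at 9.93, 9.95 and 10.08 on CR arrays and 8.94 and 9.02 on control arrays. An exact permutation test of a single gene over 5 arrays cannot reach 0.05, because there are only 10 ways to divide them into 3 and 2. Taken as 2 times the one-sided p, its smallest two-sided p is 0.2, as for Per2.

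Per1, the family member that also responds to glucocorticoids, gave 9.54, 9.83 and 10.30 in CR muscle and 7.34 and 9.09 in control muscle. The log2 fold change was 1.68 ± 0.57, made up of 2.56 against control replicate 1 and 0.80 against control replicate 2. Per3 gave 6.74, 7.11 and 7.24 in CR muscle and 4.89 and 6.49 in control muscle, where only control replicate 2 was above background. For both genes the groups did not overlap, and the lowest value came from control replicate 1. The log2 fold change of Per3 was 1.34 ± 0.40.

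Arntl, the activator, ran the other way, at 6.21, 6.11 and 6.32 in CR muscle and 8.82 and 7.37 in control muscle. The CR arrays lay within 0.21 log2 units of each other and 1.05 below the nearer control array. The log2 fold change was -1.88 ± 0.39, with differences of -2.60 from control replicate 1 and -1.15 from control replicate 2. Its partner Clock was also below both control arrays, by 0.09 at the nearest, and differed by -0.29 ± 0.18. Cry2, Nr1d1, Nr1d2 and Rora overlapped between the groups, with log2 fold changes between -0.43 and 0.10. Npas2 and Cry1 were not above background on any of the 5 arrays.

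Of 6 clock output genes measured, Dbp and Usp2 were higher without overlap, beside 9.25% of all genes. The list had a median of 0.40, 0.45 against control replicate 1 alone and 0.26 against control replicate 2 alone. Usp2, a deubiquitinase with a daily rhythm, was measured by 3 probes, and all 3 were higher on each CR array. Its brightest probe gave 12.66, 12.57 and 12.62 in CR muscle and 11.98 and 12.07 in control muscle, a log2 fold change of 0.59 ± 0.18. A dimmer probe gave 8.32, 8.16 and 8.14 in CR muscle and 6.48 and 7.47 in control muscle, for 1.23 ± 0.28.

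For Dbp, Ciart and Nfil3 the value of control replicate 1 decided the size or the direction. Dbp, a PAR-domain transcription factor, gave 12.90, 12.65 and 12.73 in CR muscle and 10.26 and 12.57 in control muscle, a difference of 2.50 from control replicate 1 and 0.19 from control replicate 2. Ciart, a repressor of BMAL1 and CLOCK, gave 9.16, 9.25 and 8.85 in CR muscle and 5.52 and 8.89 in control muscle, a difference of 3.57 from control replicate 1 and 0.19 from control replicate 2. Its groups overlapped. Nfil3, which competes with DBP for the D-box, gave 9.42, 9.17 and 9.80 in CR muscle and 11.39 and 9.14 in control muscle, so it was lower than control replicate 1 by 1.93 and higher than control replicate 2 by 0.32. A single control array has no spread of its own, so the differences from each control array alone were not tested.

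**Figure D3:**
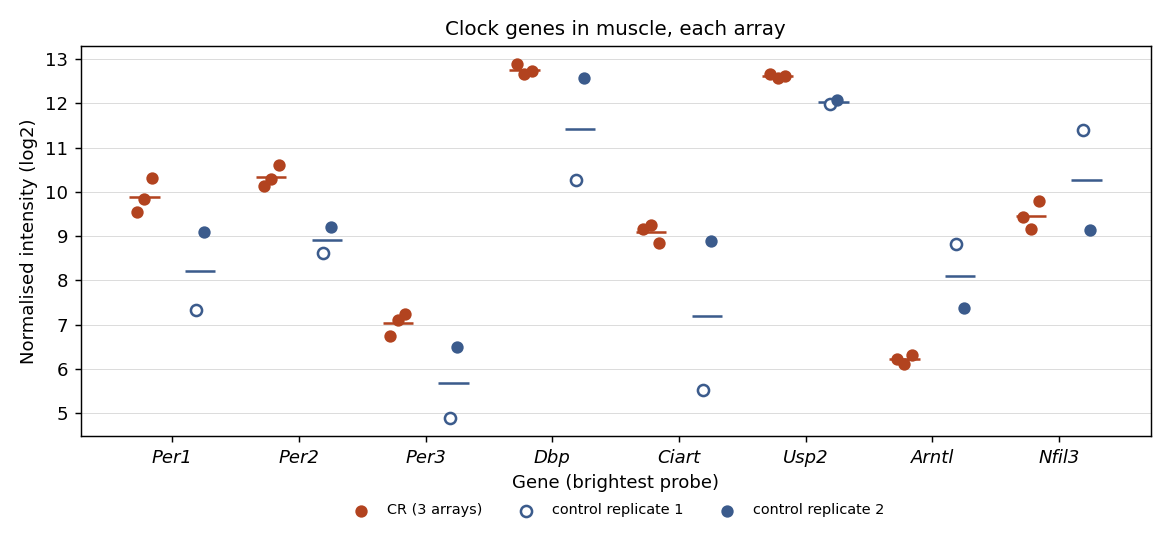
Normalised log2 intensity of 8 clock genes on each array (red-brown, 3 CR arrays; open blue, control replicate 1; filled blue, control replicate 2), with bars at the group means. Per1, Per2, Per3, Dbp and Usp2 lay above both control arrays and Arntl below both, while the groups overlapped for Ciart and Nfil3.

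Fatty acid and triglyceride synthesis was represented by genes that mostly averaged higher in CR muscle. Of 22 genes listed 19 were measured, 15 had a mean difference above 0, and 9 (47.4%, beside 9.25% of all genes) were higher on every CR array than on both control arrays. The list was chosen with earlier results of these data known, so this share describes the genes and is not a test of the set. The 9 were Slc25a1, Acly, Acaca, Elovl6, Scd1, Fads1, Agpat2, Dgat1 and Dgat2. The median difference of the list was 0.57 log2 units, 0.39 against control replicate 1 alone and 0.41 against control replicate 2 alone. It was 0.27 without background correction and 0.29 in the normalised values deposited by the authors. Elovl5, an elongase of polyunsaturated chains, was below both control arrays, by 0.01 at the nearest.

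Slc25a1, the carrier that exports citrate from mitochondria as the carbon source of fatty acid synthesis, gave 8.23, 8.25 and 9.17 in CR muscle and 7.01 and 7.04 in control muscle. Its log2 fold change was 1.52 ± 0.39, and a dimmer probe gave 0.58. Acaca, which encodes acetyl-CoA carboxylase and commits acetyl-CoA to fatty acids, gave 10.07, 9.89 and 10.91 in CR muscle and 8.70 and 8.71 in control muscle. Its log2 fold change was 1.58 ± 0.41, or 2.99-fold, with a gap of 1.18 between the nearest arrays. Acly, the enzyme that splits citrate into acetyl-CoA, differed by 0.77 ± 0.29. For these genes the control arrays were at most 0.08 apart, and CR replicate 3 was the highest array, as it was for 10 of the 19 genes.

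Elovl6 and Scd1 had the 2 highest log2 fold changes of the list. Elovl6, an elongase of saturated chains, gave 8.21, 7.26 and 9.25 in CR muscle and 6.16 and 6.51 in control muscle. Its log2 fold change of 1.91 ± 0.66, with 2.08 against control replicate 1 and 1.73 against control replicate 2, rested on CR arrays that spread over 1.99 log2 units. Scd1, the stearoyl-CoA desaturase, gave 13.15, 13.73 and 14.001 in CR muscle and 11.48 and 12.29 in control muscle, a log2 fold change of 1.74 ± 0.53 that was 2.15 against control replicate 1 and 1.34 against control replicate 2. Insig1, which holds the SREBP transcription factors in the endoplasmic reticulum, gave 7.06, 6.93 and 7.85 in CR muscle and 6.57 and 6.69 in control muscle. The groups did not overlap for these probes, while 2 dimmer Insig1 probes overlapped, at 0.15 and 0.19.

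At the step of glycerolipid assembly, Agpat2, an acyltransferase, gave 8.12, 7.79 and 8.47 in CR muscle and 6.36 and 7.18 in control muscle, a log2 fold change of 1.36 ± 0.39 that was 1.77 against control replicate 1 and 0.95 against control replicate 2. Dgat2, which makes triglyceride, gave 11.82, 11.77 and 12.01 in CR muscle and 10.21 and 11.70 in control muscle. Its difference was 1.66 from control replicate 1 and 0.17 from control replicate 2. Fasn, the fatty acid synthase gene, was measured by a dim probe that was above background on 1 CR array and on no control array, at 5.76, 4.64 and 5.18 in CR muscle and 4.89 and 5.16 in control muscle. The regulators Srebf1 and Mlxipl overlapped between the groups, with log2 fold changes of -0.17 ± 0.28 and 0.01 ± 0.19.

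**Figure D4:**
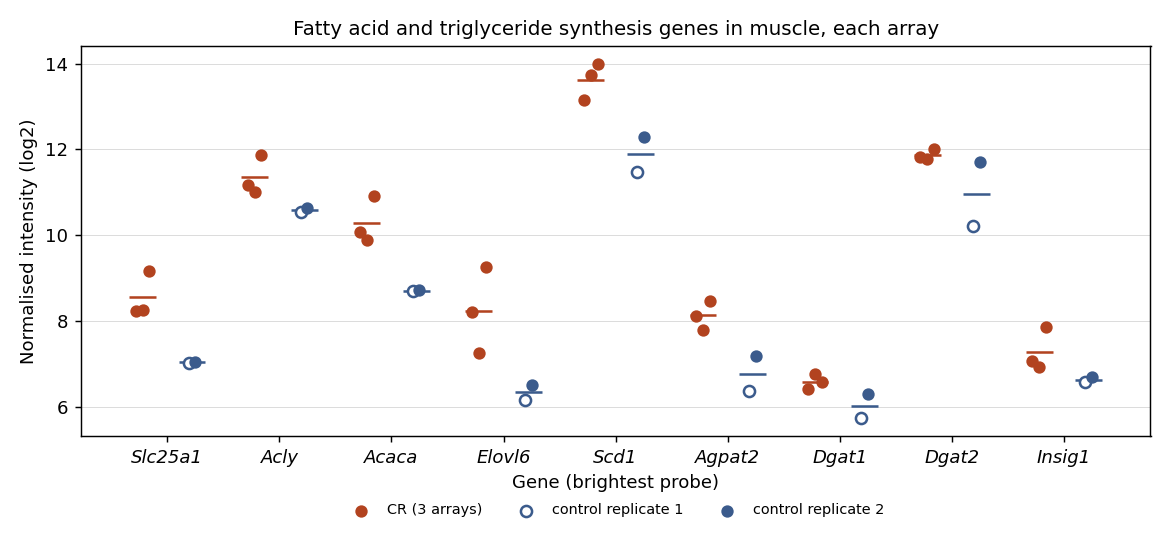
Normalised log2 intensity of fatty acid and triglyceride synthesis genes and Insig1 on each array (red-brown, 3 CR arrays; open blue, control replicate 1; filled blue, control replicate 2), with bars at the group means. The synthesis genes shown are among the 9 of 19 that were higher without overlap, so the separation of the groups follows from the choice. The control arrays nearly coincided for Slc25a1, Acly and Acaca.

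Markers of white adipocytes, which make and store triglyceride, differed beside this group. All 13 measured genes had a mean difference above 0, with a median of 0.91 log2 units, 1.43 against control replicate 1 alone and 0.44 against control replicate 2 alone. Of them 4 (30.8%, beside 9.25% of all genes), namely Plin4, Cebpa, Dgat2 and Agpat2, were higher without overlap. Their summed intensity over 16 probes was 33635, 45743 and 47135 on CR replicates 1 to 3, against 16946 on control replicate 1 and 35277 on control replicate 2, and Retn and Fabp4 were not above background on any of these arrays. Adipoq, the adiponectin gene, gave 10.50, 11.46 and 11.54 in CR muscle and 9.13 and 11.16 in control muscle, so that CR replicate 1 lay below control replicate 2. Cidec, a lipid droplet protein, gave 9.06, 10.18 and 10.17 in CR muscle and 7.51 and 9.37 in control muscle, with the same overlap.

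Pparg, the master regulator of fat cells, gave 8.11, 9.04 and 9.16 in CR muscle and 7.35 and 8.15 in control muscle. CR replicate 1 was the lowest CR array for 11 of the 13 adipocyte genes, and control replicate 1 gave the lowest value for 12. The synthesis list had control replicate 1 as its lowest array for 9 of 19 genes. Without the 2 genes that stand in both lists, 7 of 17 synthesis genes were higher without overlap, and their median difference was 0.40, 0.30 against control replicate 1 alone and 0.41 against control replicate 2 alone. The part of adipocyte RNA in the synthesis genes was not tested.

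The 11 genes for lipid droplet coats and lipases had a median of 0.29, 0.62 against control replicate 1 alone and 0.03 against control replicate 2 alone. Cidec and Plin1, which also stand in the adipocyte list, had log2 fold changes of 1.37 ± 0.58 and 1.14 ± 0.50, and Lipe, the hormone-sensitive lipase, 0.71 ± 0.36, all with overlap. Plin4 alone was higher without overlap, at 12.45, 12.98 and 12.92 in CR muscle and 12.28 and 12.37 in control muscle. Abhd5, the activator of the lipase ATGL, was the only one lower without overlap. These counts of 1 in 11 stand beside 9.25% and 9.78% of all genes. Plin2, Plin5 and Pnpla2, which encodes ATGL, overlapped between the groups, with log2 fold changes between 0.14 and 0.24. Angptl4, a fasting-induced inhibitor of lipoprotein lipase, gave 8.83, 9.37 and 8.59 in CR muscle and 7.16 and 8.54 in control muscle, a difference of 1.78 from control replicate 1 and 0.40 from control replicate 2. Lpl itself gave 14.59, 14.78 and 14.57 in CR muscle and 13.49 and 14.76 in control muscle, with overlap. Of 18 fatty acid oxidation genes, 2 were higher without overlap (Etfa, an electron carrier, and Mlycd, malonyl-CoA decarboxylase), beside 9.25% of all genes. The list had a median of 0.21, with 0.45 against control replicate 1 alone and -0.10 against control replicate 2 alone.

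Pdk4 and Ucp3, genes known to respond to fasting and circulating fatty acids in muscle, were higher on each CR array. Pdk4, the kinase that turns off pyruvate dehydrogenase, gave 12.95, 12.96 and 12.64 in CR muscle and 12.27 and 12.37 in control muscle, a log2 fold change of 0.53 ± 0.19 that was 0.58 against control replicate 1 and 0.48 against control replicate 2. Ucp3, a mitochondrial carrier of the uncoupling protein family, gave 8.63, 8.83 and 8.54 in CR muscle and 8.18 and 8.09 in control muscle, for 0.53 ± 0.21. A dimmer Ucp3 probe differed by -0.04. The pyruvate dehydrogenase phosphatase gene Pdp1 was also higher without overlap, by 0.05 at the nearest, for 0.47 ± 0.22. Of 6 fuel switch and uncoupling genes measured, 3 were higher and 1 lower without overlap, beside 9.25% and 9.78% of all genes. Their median was 0.39, 0.54 against control replicate 1 alone and 0.10 against control replicate 2 alone. Cyp2e1, a cytochrome P450 induced by fasting in liver, gave 10.96, 10.74 and 11.63 in CR muscle and 9.86 and 9.73 in control muscle, for 1.31 ± 0.43.

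On the carbohydrate side, Ppp1r3c, which targets protein phosphatase 1 to glycogen and favours its synthesis, was lower in CR muscle. It gave 13.44, 13.06 and 13.70 in CR muscle and 14.70 and 13.95 in control muscle, a log2 fold change of -0.93 ± 0.32, without overlap. Of 8 glycogen genes it and Ugp2 were below both control arrays, beside 9.78% of all genes. The list had a median of -0.05, which was -0.25 against control replicate 1 alone and 0.16 against control replicate 2 alone. The 12 genes of glycolysis and glucose transport lay between -0.27 and 0.11, with a median of -0.02 that was -0.24 against control replicate 1 alone and 0.11 against control replicate 2 alone. Without overlap, 2 were higher and 1 lower, beside 9.25% and 9.78% of all genes. Eno3 was among the higher, at 0.11 ± 0.14, and Slc2a1, the basal glucose transporter, was the lower, at -0.27 ± 0.19.

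The differences of slow-twitch fibre genes depended on the control array. Of 13 measured, 11 had a mean difference above 0 and none separated the groups. The median was 1.14 log2 units, 3.17 against control replicate 1 alone and -1.23 against control replicate 2 alone. The lowest value came from control replicate 1 for 12 of the 13, and CR replicate 1 or control replicate 2 was the highest for all 13. Myl2, the slow regulatory light chain, gave 15.50, 13.80 and 13.89 in CR muscle and 5.85 and 15.62 in control muscle, a difference of 8.55 from control replicate 1 and -1.23 from control replicate 2. Tnnc1, the slow troponin C, gave 14.89, 13.08 and 11.67 in CR muscle and 7.40 and 15.07 in control muscle. Myl3 and Csrp3, a Z-disc LIM protein, ran the same way, with differences of 5.89 and 5.74 from control replicate 1 and of -0.96 and -1.05 from control replicate 2.

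Sln, the sarcolipin gene, which encodes an inhibitor of the calcium pump, gave 12.52, 13.24 and 13.30 in CR muscle and 9.05 and 12.68 in control muscle. The difference was 3.97 from control replicate 1 and 0.34 from control replicate 2, and CR replicate 1 lay below control replicate 2. These genes, with Scd1, Per1, Per2, Dbp, Ciart, Cyp2e1, Cidec and Chst1, belong to a list that the study chose on these arrays, so that their direction is not independent evidence. Of the genes in this list, 25 were looked up and 20 had a probe. A further 5 of these (Mup2, Apoa2, Serpina1b, Serpina1d and Ttr, genes of liver secretory proteins) were above background on control replicate 1 alone and so did not pass the filter, with CR means that differed from control replicate 1 by -6.18 to -4.12. The 15 that passed were all printed by the study as up-regulated, so that their mean differences above 0 were fixed by the choice. Of these 15, 6 were higher without overlap, beside 9.25% of all genes. The median of all 15 was 1.68, with 3.57 against control replicate 1 alone and 0.19 against control replicate 2 alone.

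Differences were smaller in genes of fast-twitch fibres. The 13 measured had a median of 0.03, -0.08 against control replicate 1 alone and 0.07 against control replicate 2 alone, and a range of -0.26 to 0.48. Casq1, the calcium buffer of the fast-fibre sarcoplasmic reticulum, gave 11.16, 11.55 and 11.42 in CR muscle and 10.96 and 10.83 in control muscle, for 0.48 ± 0.33. Jph1, a calcium handling gene outside this list, holds the sarcoplasmic reticulum against the T-tubule. It gave 9.87, 10.35 and 10.24 in CR muscle and 9.76 and 9.63 in control muscle, for 0.46 ± 0.18. Casq1 and Jph1 separated the groups. Of the 13 fast-twitch genes, 2 were higher and 1 lower without overlap, beside 9.25% and 9.78% of all genes. The higher were Casq1 and Mylpf (0.15 ± 0.14), and the lower was Tnnc2, the fast troponin C, at -0.11 ± 0.14. Myh4, the fastest myosin, overlapped at -0.16 ± 0.37.

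**Figure D5:**
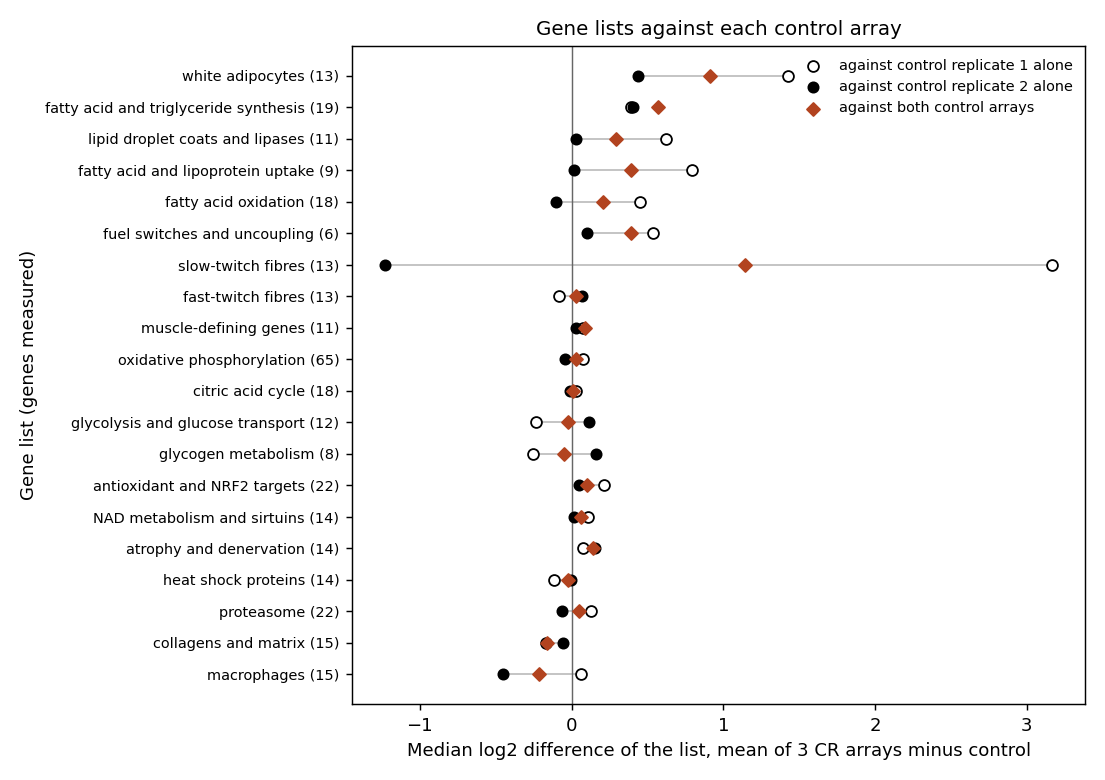
Median log2 difference of 20 gene lists, mean of the 3 CR arrays minus control, against control replicate 1 alone (open), control replicate 2 alone (filled) and both (red-brown diamonds). The slow-twitch median was 3.17 and -1.23 against the single control arrays, while the synthesis list was at 0.39 and 0.41.

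Gene lists of oxidative metabolism had median differences near 0. The 65 genes of oxidative phosphorylation had a median of 0.03 log2 units and a range of -0.28 to 0.30, with 4 higher and 3 lower without overlap (beside 9.25% and 9.78% of all genes). The median was 0.08 against control replicate 1 alone and -0.04 against control replicate 2 alone. The 18 genes of the citric acid cycle had a median of 0.01, with 0.03 against control replicate 1 and -0.01 against control replicate 2. Their range was -0.19 to 0.57, with 0 higher and 2 lower without overlap (beside 9.25% and 9.78% of all genes). The highest was Idh2, which overlapped, at 1.53 against control replicate 1 and -0.40 against control replicate 2. Among regulators of mitochondrial biogenesis, Ppargc1a gave 9.81, 9.19 and 9.90 in CR muscle and 9.92 and 9.91 in control muscle. All CR arrays lay below both control arrays, by 0.01 at the nearest, for -0.28 ± 0.23. Nrf1 and Tfam differed by -0.02 ± 0.19 and 0.12 ± 0.24, and Gabpa, a subunit of a nuclear activator of respiratory genes, by 0.38 ± 0.20 without overlap.

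The 14 genes of NAD metabolism and the sirtuins had a median of 0.06 (0.11 and 0.02 against control replicates 1 and 2 alone). Without overlap, 1 was higher and 1 lower, beside 9.25% and 9.78% of all genes. Sirt1 gave 8.31, 8.63 and 8.32 in CR muscle and 8.21 and 8.34 in control muscle, for 0.14 ± 0.19. Sirt3, the main mitochondrial deacetylase, differed by -0.09 ± 0.15. Nqo1, the quinone reductase that metabolises βL, gave 8.94, 8.85 and 9.10 in CR muscle and 8.62 and 9.06 in control muscle, for 0.12 ± 0.18. Of 22 antioxidant genes 18 had a mean difference above 0 with a median of 0.10 (0.21 and 0.05 against control replicates 1 and 2 alone). Without overlap, 3 were higher, beside 9.25% of all genes. These were Nqo2 at 0.41 ± 0.17, catalase (Cat) at 0.34 ± 0.17 and the mitochondrial peroxiredoxin Prdx3 at 0.29 ± 0.15.

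Gadd45a, a stress gene induced by fasting and denervation in muscle, gave 10.44, 11.40 and 11.14 in CR muscle and 9.78 and 10.35 in control muscle, for 0.93 ± 0.32. A dimmer probe gave 0.90. The ubiquitin ligases of muscle atrophy, Trim63 and Fbxo32, overlapped at -0.23 ± 0.21 and -0.13 ± 0.26. Among 14 genes of atrophy and denervation 10 were above 0, with a median of 0.14 (0.08 and 0.15 against control replicates 1 and 2 alone). Gadd45a was the only one of the 14 higher without overlap, beside 9.25% of all genes, and none was lower without overlap. Myog, a myogenic factor raised by denervation, gave 5.80, 5.73 and 6.33 in CR muscle and 5.19 and 5.39 in control muscle by 1 probe. That probe was above background on all CR arrays and on no control array, while another probe overlapped at 0.15. Of 12 glucocorticoid-induced genes, Per1, Mt1 and Sgk1 were higher without overlap and Errfi1 lower (beside 9.25% and 9.78% of all genes), while Fkbp5 and Tsc22d3 overlapped.

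Hspa1a, the inducible chaperone HSP70, gave 7.87, 6.82 and 6.86 in CR muscle and 7.94 and 8.60 in control muscle, for -1.09 ± 0.45. The groups were 0.08 apart at the nearest arrays. The other 13 heat shock genes lay between -0.43 and 0.53. The 15 autophagy genes had a median of 0.05 (0.09 and 0.01 against control replicates 1 and 2 alone). Without overlap, 3 were higher and 2 lower, beside 9.25% and 9.78% of all genes. Atg7 was among the higher (0.49 ± 0.23), and the lower were Atg12 (-0.20 ± 0.15) and Atg4b (-0.59 ± 0.21). Of the CR and control arrays, the dim Atg4b probe was above background on control replicate 2 alone. Of 15 matrix genes 5 were above 0 and 3 lay below both control arrays (beside 9.78% of all genes), with a median of -0.16 (-0.17 and -0.06 against control replicates 1 and 2 alone). One of these was Col4a1, a basement membrane collagen, at -0.36 ± 0.16.

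Of 15 macrophage genes 4 were above 0, with a median of -0.21, 0.06 against control replicate 1 alone and -0.45 against control replicate 2 alone. Lgals3, which encodes galectin-3 and is also made outside macrophages, was the only one of the 15 to separate the groups. It was higher, beside 9.25% of all genes higher without overlap. It gave 10.60, 10.35 and 10.58 in CR muscle and 9.47 and 10.02 in control muscle, for 0.76 ± 0.19. Of 12 interferon genes 2 were higher and 1 lower without overlap (beside 9.25% and 9.78% of all genes), with a median of 0.09 (0.09 and 0.04 against control replicates 1 and 2 alone).

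Among the probes with the smallest p and no overlap, several were near the background of the array. Of the 10 higher 5, and of the 10 lower 7, had means under 7 log2 units in both groups, where the lowest signal above background was 5.46 to 5.56. Erdr1, an erythroid differentiation regulator, had the widest gap of the genes given here, 1.25, at 7.49, 7.43 and 7.75 in CR muscle and 5.69 and 6.18 in control muscle, for 1.62 ± 0.33. The uncharacterised 1110017D15Rik gave 6.63, 7.71 and 6.93 in CR muscle and 5.35 and 5.77 in control muscle, for 1.53 ± 0.30, with control replicate 1 not above background. Mfng, a glycosyltransferase of the Notch pathway, gave 6.99, 7.05 and 7.53 in CR muscle and 6.04 and 5.99 in control muscle, for 1.18 ± 0.31. Chst1, a keratan sulfate sulfotransferase, gave 9.52, 10.12 and 10.18 in CR muscle and 8.46 and 8.96 in control muscle, for 1.23 ± 0.38.

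Arrdc2, an arrestin-domain protein, gave 8.05, 8.41 and 8.89 in CR muscle and 6.74 and 7.22 in control muscle, with an SE of 0.77 on a difference of 1.47. The corepressor gene Cir1 gave 6.98, 6.84 and 6.91 in CR muscle and 5.96 and 6.02 in control muscle, and a brighter Cir1 probe differed by 0.38 rather than 0.92. The groups were separate for each of these genes.

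Acsm3, an enzyme that activates medium-chain fatty acids, was above background on the 3 CR arrays and on no control array. It gave 6.17, 6.34 and 6.58 in CR muscle and 5.20 and 5.26 in control muscle. A fold change against a group with no array above background is a lower bound, set here against the lowest signal above background on each array or the dim probe's own value, and Acsm3 was at least 1.84-fold higher. Pgap2, a gene of GPI-anchor maturation, was at least 1.81-fold higher by 1 probe, while 2 brighter probes of it differed by 0.06 and -0.41. Bid, a death agonist of the BCL-2 family, was at least 1.41-fold higher. In all 51 probes were above background on the 3 CR arrays and on no control array (0.405%), and 68 on both control arrays and no CR array (0.54%).

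Among the lower probes, Vti1a had the smallest p of the comparison, but for 1 of its 3 probes only. That probe gave 4.81, 5.18 and 4.95 in CR muscle, where it was not above background, and 6.05 and 6.13 in control muscle, so that CR was at least 1.49-fold lower (limma, adjusted p = 0.612). The 2 brighter probes of this vesicle-fusion gene differed by 0.24 and -0.17. Mtrf1, Trim21, Nfix and Polr1d were likewise lower by a dim probe (-0.77, -0.79, -0.73 and -0.67), while their brightest probes differed by 0.07, 0.20, -0.24 and -0.01. The dim probes of Nfix and Polr1d were not above background on any CR array, and their bounds were at least 1.22-fold and at least 1.15-fold lower in CR.

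Other lower genes had 1 probe or probes that ran together. Mboat1, a lysophospholipid acyltransferase, gave 6.71, 6.75 and 6.67 in CR muscle and 7.86 and 7.39 in control muscle, for -0.92 ± 0.18. Slc16a9, a carnitine transporter of the monocarboxylate family, gave 7.30, 7.29 and 7.23 in CR muscle and 8.39 and 7.80 in control muscle, for -0.83 ± 0.19. The CR arrays were within 0.08 log2 units of each other for both genes, and the groups did not overlap.

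Rftn2, a lipid raft linker, was lower by both probes, at 6.79, 6.35 and 6.58 in CR muscle and 7.38 and 7.32 in control muscle for the brighter. Otub2, a deubiquitinase, was lower by all 3 probes, and one of them gave 6.23, 5.54 and 6.62 in CR muscle and 8.19 and 7.08 in control muscle. Akr1c19, an aldo-keto reductase, gave 5.35, 4.99 and 5.60 in CR muscle and 6.25 and 6.43 in control muscle, above background on 1 of the CR arrays. Dynll2, a dynein light chain, gave 6.96, 6.90 and 6.90 in CR muscle and 7.51 and 7.43 in control muscle. Over all genes with more than 1 probe, 2217 in number, none had 1 probe past 1.5-fold higher and another past 1.5-fold lower. Only 2.16% of probes were past 1.5-fold higher and 1.53% lower, so this count cannot tell whether probes of a gene run together.

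Some of the lowest values relative to control came from a single control array. Mat1a, a methionine adenosyltransferase of the liver, gave 5.62, 5.37 and 5.25 in CR muscle and 8.37 and 5.63 in control muscle, a difference of -2.96 from control replicate 1 and -0.21 from control replicate 2. Spon2, a secreted matrix protein, gave 7.29, 7.09 and 7.43 in CR muscle and 9.50 and 7.74 in control muscle, and it separated the groups. Dmkn, an epidermal gene, gave 6.40, 5.45 and 5.09 in CR muscle and 6.13 and 7.58 in control muscle, and only control replicate 2 stood above the CR arrays.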

How the data were processed

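RNA of muscle had been hybridised to Illumina Sentrix Mouse-8 v2 BeadChips, and the authors summarised it in BeadStudio. The deposited table holds an unnormalised intensity and a detection p-value for each probe and array, and a table of quantile-normalised intensity values that the authors made was used as an alternative. The 8 muscle arrays (3 CR, 2 control, 3 βL) were background-corrected by normexp fitted through the detection p-values (nec, offset 16), quantile-normalised and put on log2. Means were compared with limma 3.58.1 in R 4.3.3 (lmFit and eBayes, 3 diets, contrast CR minus control), with Benjamini-Hochberg adjustment over 12584 probes and 0.05 as the adjusted threshold. The script was tested on simulated data. Genes were named from the platform annotation, in which 23978 of 25697 probes had 1 symbol, none several and 1719 none; 23962 matched the RefSeq table by gene ID. In lists, a gene is its brightest probe kept. Named genes were the 10 higher and 10 lower probes with the smallest p among those without overlap, the 12 of each direction with the largest gap between groups, up to 4 members with the smallest p of each list, the study's own array and PCR genes and Nqo1, the 6 of each direction farthest from each control array, and the 6 above background in 1 group only; other list members given by value were named after their values were seen. The members and lists were chosen with earlier results of these data known, so no list was tested as a set. Replicate numbers come from the labels, as do the groups. The number of arrays limits the precision, and an array gives relative signal, which background correction stretches for dim probes. Alternatives changed the background correction, offset, scaling, filter, arrays normalised or fitted, weights, test and replicate block, and left out each muscle array in turn.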

Additional observations from a re-analysis of the deposited data

How the results depend on the processing

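The comparison with 2 control arrays, one of which stood apart, limits every value, and no probe was called under any of the 13 settings that kept all CR and control arrays. Leaving out 1 array gave 0 to 6 calls, the 6 without control replicate 2 (Myl2, Dbp, Ciart, Mat1a, Myl3 and 1 unnamed probe), where the lone control array is assumed to vary like the other diets. The 1.5-fold counts, 272 higher and 192 lower, were 82 and 26 without background correction, 96 and 33 from the authors' normalised values, 143 and 66 with an offset of 50, 354 lower under median scaling, and 181 and 96 among probes above background on all 5 arrays. Leaving out 1 array gave 261 to 788 higher and 181 to 695 lower, the most without control replicate 2. Probes without overlap numbered 642 higher and 2343 lower under median scaling, 2468 and 2496 without a filter, and 1180 to 3725 and 1193 to 3922 with 1 array left out, where fewer arrays must be separate. The synthesis median was 0.27 without background correction, 0.29 from the authors' values, 0.39 with an offset of 50, and 0.39 to 0.63 with 1 array left out. With 1 array left out the slow-twitch median was -1.23 to 3.16, the oxidation median -0.10 to 0.44 and the oxidative phosphorylation median -0.0427 to 0.0757; the last was -0.0736 under median scaling. Of 67 genes followed, 62 kept their sign in all settings. The others turned without control replicate 1, with ranges over arrays left out of -1.92 to 0.32 for Nfil3, -1.23 to 8.54 for Myl2, -0.96 to 5.87 for Myl3, -1.87 to 5.80 for Tnnc1 and -1.05 to 5.73 for Csrp3. The cause was not tested. With the replicate number as a replicate block there were 0 calls, and 334 probes were past 1.5-fold higher and 255 lower. The 7 same-numbered pairs of arrays had deviations from their diet means that correlated at -0.22 to 0.18. The deviations of the 2 control arrays mirror each other by construction. These values therefore cannot decide whether the numbers pair the arrays.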
